A study of Mus musculus with 6 samples.

Results

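The genes described here encode the factors that start and extend protein synthesis, in follicular helper T (Tfh) cells of the mouse. Members were taken as the gene symbols that begin with Eif (eukaryotic initiation factor) or Eef (eukaryotic elongation factor), without Eif2ak2. There were 67 such symbols among the 14744 in the table, and 65 of them had a normalized read count of at least 10 in at least 3 of the 6 libraries, of 11296 genes that did so. Of these 65, 56 were Eif and 9 were Eef symbols, and 4 were pseudogenes. 64 of the 65 were at or above 10 in all 6 libraries, and Eef2k was so in 5, so no member entered through a single group. The 2 symbols just outside the minimum were the pseudogenes Eif3s6-ps2, at 7.07, 3.37 and 1.04 (WT) against 0, 3.35 and 1.02 (labelled Bach2-cKO), and Eif3s6-ps4, at 8.07, 0 and 4.16 (WT) against 0, 2.68 and 1.02 (labelled Bach2-cKO).

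RNA sequencing compared 3 libraries of Tfh cells from WT mice with 3 from mice whose Bach2 gene had been made conditional and was to be removed in T cells (Bach2 fl/fl Cd4-cre, called Bach2-cKO). All mice were C57BL/6 and 2 to 3 months old, and each sample held 10000 to 30000 cells taken from mesenteric lymph nodes by the gate CD4+ B220- CD44+ PD-1+ CXCR5+. Mice carrying Cd4-Cre without the floxed alleles are what the study's text calls WT, so the recombinase was shared by both groups. Cd4-Cre acts from the CD4+CD8+ stage in the thymus, so a deletion made by it would also be present in CD8 T cells and in every other CD4 T cell of the animal. The floxed line came from targeted embryonic stem cells, and the gate does not separate Tfh from follicular regulatory T cells. Whether each library came from a separate mouse is not stated, so p-values measure only the spread between these libraries.

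Each mRNA is translated in steps that these factors carry out in turn. eIF1, eIF1A, eIF3, eIF5 and the eIF2 complex with its initiator tRNA load the small ribosomal subunit, the cap-binding complex eIF4F (eIF4E, eIF4G and the helicase eIF4A) brings that subunit to the mRNA, and eEF1 and eEF2 then drive the elongating ribosome. Activated T cells raise protein synthesis strongly, and the mTORC1 kinase and the phosphorylation of eIF2 are the best known controls of it.

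The targeted gene was looked at first. Bach2, a transcriptional repressor of effector programmes in lymphocytes, was at 233, 222 and 105 in the WT libraries and at 399, 763 and 591 in those labelled Bach2-cKO. Every library labelled Bach2-cKO lay above every WT library, 3.13-fold by the means, with a log2 fold change of 1.68 ± 0.37 (SE). The value per gene goes against the label, and it also counts reads from parts of the transcript that the Cre does not remove. How much of it came from outside the floxed part was not tested. Il4, a type 2 cytokine gene that BACH2 is known to repress in T cells, was at 656, 911 and 1411 (WT) against 2038, 2977 and 2303 (labelled Bach2-cKO), and Gata3, a transcription factor of the same programme, at 227, 251 and 309 (WT) against 758, 1014 and 505 (labelled Bach2-cKO). Both were higher without overlap in the libraries labelled Bach2-cKO. Foxp3, which marks regulatory T cells, was at 222, 315 and 344 (WT) against 47.3, 140.0 and 91.0 (labelled Bach2-cKO), and Ifng, a type 1 cytokine gene, at 179.7, 164 and 362 (WT) against 32.5, 91.1 and 51.1 (labelled Bach2-cKO), both lower without overlap. The paper's flow cytometry found more IL-4-secreting and fewer IFN-γ-secreting cells among Bach2-deficient Tfh cells. It also found the ratio of Tfh to follicular regulatory T cells shifted toward Tfh. Il4, Ifng and Foxp3 differed in the same direction as those cell measures. These 4 genes were chosen after their values were seen, and an exchange of the labels, which would turn every direction, was not tested. The groups are therefore named by their labels throughout, and every direction below is that of the labels.

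T cell genes were abundant in all 6 libraries, though some of them differed between the groups (Cd3e, Trac, Cd28 and Icos were lower at an unadjusted p under 0.05). Cd3d, a chain of the T cell receptor complex, was at 15854, 18785 and 24100.1 in the WT libraries and at 19522, 18739.8 and 17543 in those labelled Bach2-cKO. Cxcr5, the follicle-homing receptor that the gate used, was at 1613, 1444 and 2039 in the WT libraries and at 2028, 1271 and 2207 in those labelled Bach2-cKO. Libraries differed in other ways. WT replicate 1 had 11648 genes above 0, against 13217 and 13247 in the other WT libraries and 13111, 13567 and 13359 in those labelled Bach2-cKO. In all 6 libraries 100% of values were whole multiples of 1 step within 0.1 of a step. Whole reads were recovered from 5 of them and came to 6585742 and 7823717 in WT replicates 2 and 3 and to 5045131, 10987752 and 7197242 in Bach2-cKO replicates 1 to 3. The values of WT replicate 1 summed to 7809702, or 7737531 steps, and its reads were not recovered because the rule used here accepts no step so near to 1.

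The factors spanned a wide range of mRNA levels. Per kilobase (kb) of the longest annotated transcript, the scale on which genes can be compared with each other, Eef1a1, which carries aminoacyl-tRNA to the ribosome, led the 61 members that are not pseudogenes with 17565 ± 2115 normalized reads per kb in WT (mean ± SD, n = 3). Eif1, which guards the choice of start codon, came next with 12006 ± 592 and Eif5a, which helps the ribosome through stalling sequences, after it with 9830.0 ± 4382. Eef1a1 exceeded Eif1 by more than their spread, while the spread of Eif5a reached into the level of Eif1 because WT replicate 1 was far above the other libraries. The eIF3 subunit genes Eif3h, Eif3g, Eif3m and Eif3k followed between 2011 and 2511 per kb. At the other end Eef2k, the kinase that inhibits eEF2, had 2.83 ± 0.429 per kb, below every other member.

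**Figure D1:**
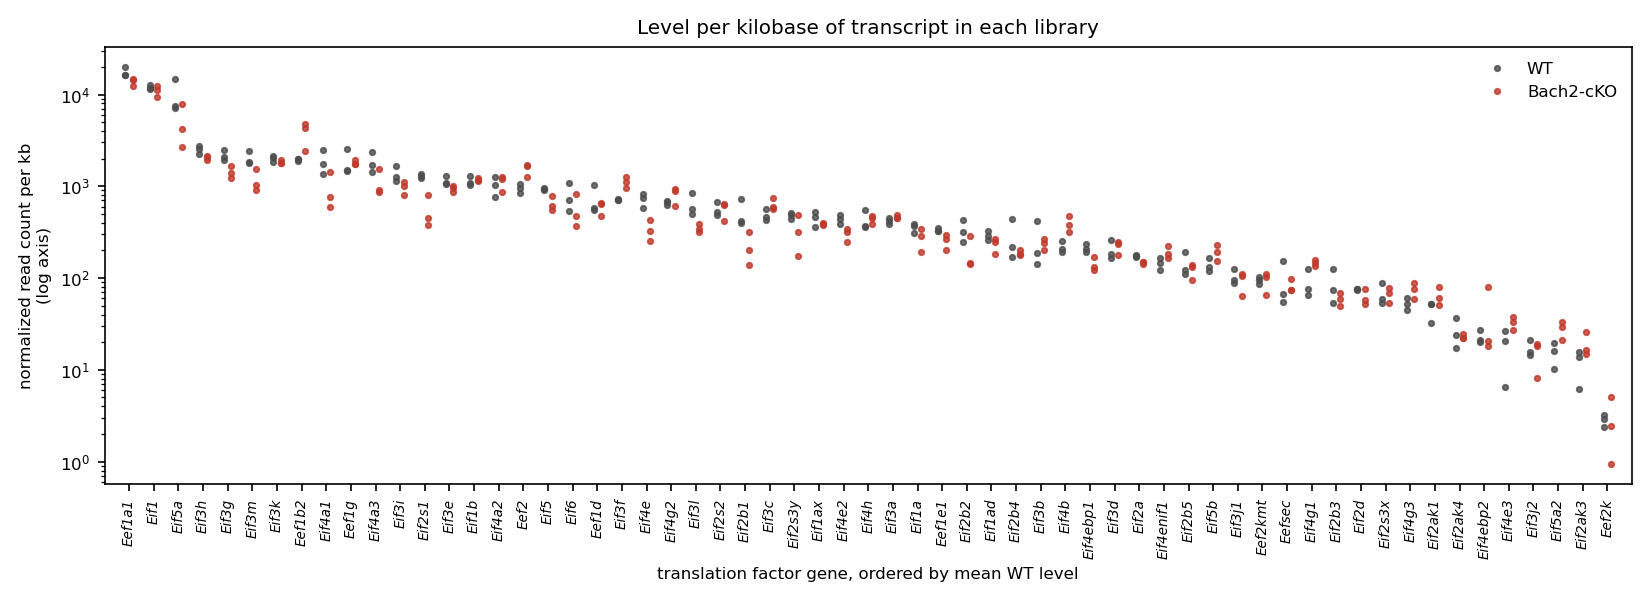
Normalized read count per kilobase of the longest transcript (log axis) for the 61 translation factor genes that are not pseudogenes, ordered by mean WT level, with a dot for each library (grey, WT; red, labelled Bach2-cKO). Levels run from 17565 for Eef1a1 to 2.83 for Eef2k in WT, and the red dots of Eif2s1 and Eif4e lie below the grey ones while those of Eef1b2 and Eef2 lie above.

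No member passed after adjustment in the main fit, and the counts that follow are of unadjusted p. In bulk samples fewer cells of a type and less RNA per cell cannot be told apart. In limma's moderated test on log2(value + 1), 15 of the 65 members were lower and 5 were higher at an unadjusted p under 0.05, where 10.2% of all 11296 genes tested were lower and 10.1% were higher. That is 23.1% of the members lower and 7.69% higher. The median log2 fold change of the members was -0.18, against 0.08 over all genes tested. After Benjamini-Hochberg adjustment over all genes, limma called 0% of genes at the study's thresholds (adjusted p under 0.01 and more than 2-fold), members included, with 0.141 as the smallest adjusted p, so no member passed. In all 2301 genes had an unadjusted p under 0.05, and the log2 fold changes of the 20 members among them ran from -1.67 to 0.92.

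Values did not overlap between the groups for 17 members that were lower and 9 that were higher, beside 12.2% of all genes lower and 14.6% higher without overlap. Most members, 39 of 65, differed by less than 0.5 on the log2 scale in either direction. More than 2-fold differences were seen in 7 members that were lower and 1 that was higher, 12.3% of the members, against 20.2% of all genes. On the whole reads of 5 libraries, DESeq2 called 0.875% of genes at the study's thresholds (95 genes) and no member, while edgeR called 0 genes. The paper's own DESeq2 comparison, with 3 replicates in each group, reported more genes at its thresholds than limma, edgeR or DESeq2 called here, in both directions. DESeq2 gave an adjusted p under 0.05 to 3.63% of genes and to 6 of the 65 members, namely Eif2s1 (0.0107), Eif4g1 (0.0112), Eif4e (0.0207), Eif4b (0.0248), Eef1b2 (0.0372) and Eef2 (0.049). Over all alternatives the adjusted p of these 6 ran from 0.000159, for Eif2s1 with libraries weighted by their spread, to 0.651, for Eif4g1 with a length and GC trend removed. With those weights, which gave WT replicate 1 a weight of 0.206, 6 lower and 3 higher of the 65 members passed the study's thresholds. So did 1128 of all 11296 genes tested. In edgeR's quasi-likelihood test the smallest adjusted p of a member was 0.150.

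**Figure D2:**
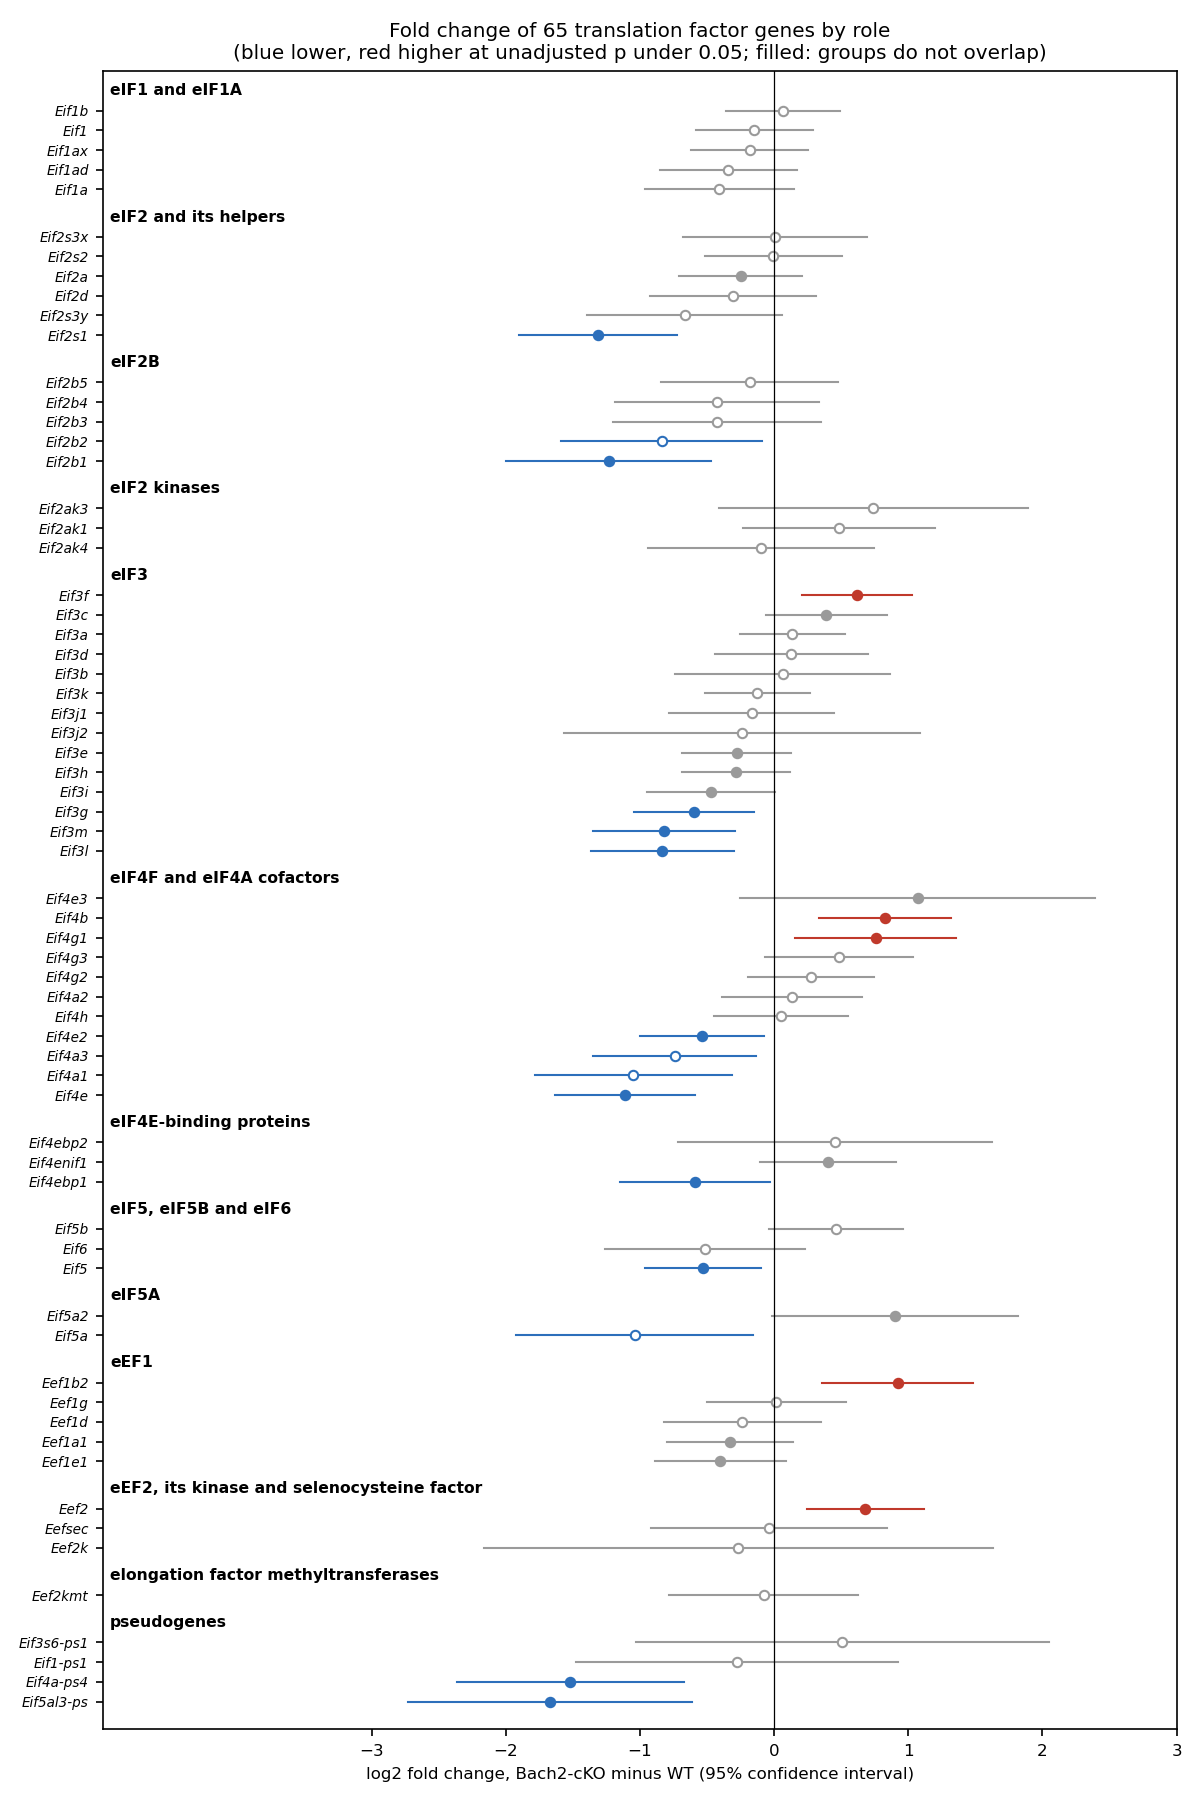
Log2 fold change of each of the 65 translation factor genes, libraries labelled Bach2-cKO minus WT, with its 95% confidence interval from limma (n = 3 against 3), grouped by role. Blue marks 15 members lower and red 5 higher at an unadjusted p under 0.05, and filled circles mark members whose groups do not overlap.

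The eIF2 complex brings the initiator tRNA to the ribosome, and its alpha subunit is the protein that stress kinases phosphorylate. Eif2s1, which encodes that alpha subunit at chr12:78861819-78887010 (GRCm38), was at 4613, 4221 and 4370.4 in the WT libraries and at 1302, 1544 and 2749 in those labelled Bach2-cKO. All 3 WT libraries stood close together near the top, Bach2-cKO replicates 1 and 2 lay far below, and replicate 3 lay between, nearer to the other 2 of its group on the read count scale. The mean was 2.36-fold lower, and its log2 fold change was -1.31 ± 0.27 (SE, n = 3 against 3; adjusted p = 0.141 in limma). No other eIF2 subunit gene had an unadjusted p under 0.05. Eif2s2, the beta subunit gene, was at 2783, 1987 and 2167 in the WT libraries and at 2647, 2584 and 1723 in those labelled Bach2-cKO, with overlapping groups.

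The gamma subunit, which binds GTP, is encoded on both sex chromosomes. Eif2s3x was at 323, 214 and 195 in the WT libraries and at 281, 249 and 195 in those labelled Bach2-cKO, without a direction that held across scalings. Eif2s3y was at 1612, 1358 and 1507 in the WT libraries and at 545, 985 and 1531 in those labelled Bach2-cKO. Its level was low in Bach2-cKO replicate 1, intermediate in replicate 2 and at the WT level in replicate 3, so the groups overlapped, with -0.67 ± 0.33 on the log2 scale (adjusted p = 0.273). The other Y-linked genes did not share that order: Ddx3y, an RNA helicase, was at 959.9, 1279.9 and 1515 (WT) against 1429, 1646 and 1349 (labelled Bach2-cKO). Uty, a histone demethylase relative, was at 258, 554 and 569.8 (WT) against 419.7, 554 and 338 (labelled Bach2-cKO), and Kdm5d, another demethylase, was at 209, 471 and 421 (WT) against 371, 348 and 429 (labelled Bach2-cKO). Y-linked genes were thus read in all 6 libraries, and Xist, the RNA of the inactive X, was at 0 in 4 libraries and at 6.70 and 1.02 in Bach2-cKO replicates 2 and 3. Per kb the Y copy was the more abundant gamma gene, with Eif2s3y over Eif2s3x ratios of 5.84, 7.43 and 9.03 in the WT libraries and 2.27, 4.64 and 9.18 in those labelled Bach2-cKO. The spread of that ratio within the labelled Bach2-cKO group covers all WT values. Eif2a, an alternative initiator tRNA factor, was lower without overlap at 587, 611 and 597 (WT) against 517, 486 and 507 (labelled Bach2-cKO), a log2 fold change of -0.25 ± 0.21 with an adjusted p of 0.487.

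eIF2B recharges eIF2 with GTP. Eif2b1, for its alpha subunit, was at 1452, 833 and 793 in the WT libraries and at 278, 412 and 642 in those labelled Bach2-cKO. Each Bach2-cKO value lay below each WT value, with the highest of them in replicate 3, a 2.31-fold lower mean and a log2 fold change of -1.23 ± 0.34 (adjusted p = 0.145, limma). Eif2b2, for the beta subunit, was at 692, 395 and 513 in the WT libraries and at 232, 228 and 459 in those labelled Bach2-cKO. Its groups overlapped through Bach2-cKO replicate 3 and WT replicate 2, with a log2 fold change of -0.84 ± 0.34. All 5 subunit genes had a negative fold change, with a median of -0.42, and 2 of the 5 were lower at an unadjusted p under 0.05, beside 10.2% of all genes. Without WT replicate 1, which was the highest library for Eif2b1 to Eif2b5 alike, 1 of the 5 was, beside 9.43% of all genes. That median was then -0.10. Among the kinases that phosphorylate eIF2, 0 of 3 had a p under 0.05: Eif2ak3 (PERK) and Eif2ak1 (HRI) had log2 fold changes of 0.74 and 0.48, and Eif2ak4 (GCN2) of -0.10.

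Start codon selection is the work of eIF1, eIF1A and eIF5. None of the 5 genes of the eIF1 and eIF1A group had a p under 0.05, and their fold changes ran from -0.41 for Eif1a to 0.06 for Eif1b. Eif5, the factor that makes eIF2 hydrolyse its GTP, was at 3849.6, 3674 and 3752 in the WT libraries and at 2209.5, 2483 and 3209.5 in those labelled Bach2-cKO. WT libraries were nearly equal and all above the other group, whose replicate 3 was again nearest to WT. That was a log2 fold change of -0.53 ± 0.20 (adjusted p = 0.185). Eif5b, which joins the subunits afterwards, was at 1301, 925 and 1023 in the WT libraries and at 1772, 1513 and 1202 in those labelled Bach2-cKO, overlapping, and Eif6, which keeps free large subunits apart from small ones, was at 1636, 811 and 1069 (WT) against 711, 556 and 1230.4 (labelled Bach2-cKO), overlapping as well.

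eIF3 is the largest initiation factor, and its 14 tested genes differed in direction. Eif3l was at 2004, 1167 and 1338 in the WT libraries and at 740.5, 811 and 921 in those labelled Bach2-cKO. Eif3m was at 4754, 3560.3 and 3613 in the WT libraries and at 1788, 2042 and 3052 in those labelled Bach2-cKO. Eif3g, whose product binds RNA, was at 2703, 2147 and 2269 in the WT libraries and at 1349, 1529 and 1843 in those labelled Bach2-cKO. In each of these 3 genes the groups did not overlap, WT replicate 1 was the highest library and Bach2-cKO replicate 1 the lowest, with log2 fold changes of -0.83 ± 0.24, -0.82 ± 0.24 and -0.60 ± 0.20 and adjusted p of 0.147, 0.147 and 0.164. Eif3f was higher instead, at 1771, 1849 and 1794 in the WT libraries and at 3151, 2788 and 2419 in those labelled Bach2-cKO. Its WT values differed by little and all 3 of the other group were above them, replicate 3 least, with a mean 1.54-fold higher and a log2 fold change of 0.62 ± 0.18 (adjusted p = 0.151). Eif3f and Eif3m encode the subunits that carry an MPN and a PCI domain in the same part of the complex. The 10 other subunit genes lay between -0.47 (Eif3i) and 0.39 (Eif3c), and of these Eif3e, Eif3h and Eif3i were lower and Eif3c higher without overlap. Eif3a, the scaffold, was nearly level at 1981, 2326 and 2138 (WT) against 2301, 2304 and 2466 (labelled Bach2-cKO). Over the 14 genes the median was -0.20, and it was -0.09 without WT replicate 1, -0.01 without Bach2-cKO replicate 3 and -0.05 after removal of the length and GC trend.

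The cap-binding complex was divided too. Eif4e, which binds the mRNA cap, was at 4119, 2919 and 3682 in the WT libraries and at 1278, 1616 and 2126 in those labelled Bach2-cKO. The highest value of the labelled Bach2-cKO group, in replicate 3, was below the lowest WT value, and the mean was 2.14-fold lower, with a log2 fold change of -1.11 ± 0.23 (adjusted p = 0.141, limma). Eif4a1, the main eIF4A helicase gene, was at 7812, 4286 and 5508 in the WT libraries and at 1868, 2448 and 4551 in those labelled Bach2-cKO. Here Bach2-cKO replicate 3 exceeded WT replicate 2, so the groups overlapped, with a log2 fold change of -1.05 ± 0.33 (adjusted p = 0.157). Eif4a3, the relative of eIF4A that sits in the exon junction complex, was at 3577, 2135 and 2601 in the WT libraries and at 1379, 1319 and 2338 in those labelled Bach2-cKO, overlapping in the same libraries, with -0.74 ± 0.27. Eif4e2, a cap-binding protein that represses translation, was at 1675, 1340.5 and 1532 in the WT libraries and at 854, 1116 and 1183 in those labelled Bach2-cKO, with no overlap and -0.54 ± 0.21 (adjusted p = 0.2). In all 4 genes WT replicate 1 was the highest library and Bach2-cKO replicate 3 the highest of its group.

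The scaffold and the helicase cofactor lay on the other side. Eif4g1, the scaffold that joins the cap to the small subunit, was at 715, 432 and 370.2 in the WT libraries and at 819, 886 and 762 in those labelled Bach2-cKO. WT replicate 1 came close to the other group and WT replicates 2 and 3 were well below it, with a mean 1.63-fold higher and a log2 fold change of 0.76 ± 0.27 (adjusted p = 0.177). Eif4b, the cofactor that stimulates eIF4A, was at 970.0, 795 and 741 in the WT libraries and at 1809, 1457 and 1209 in those labelled Bach2-cKO. No WT library reached the lowest value of the other group, the mean was 1.79-fold higher and the log2 fold change was 0.83 ± 0.22 (adjusted p = 0.142). The scaffold relatives Eif4g2 and Eif4g3 had log2 fold changes of 0.28 and 0.48 with overlapping groups. Eif4e3, a rarer cap-binding relative, was at 16.1, 66.2 and 52.0 (WT) against 84.2, 94.5 and 68.5 (labelled Bach2-cKO), without overlap but with its lowest value in WT replicate 1.

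eIF4E-binding proteins hold eIF4E away from eIF4G when mTORC1 is inactive. Eif4ebp1 was at 386, 414 and 473 in the WT libraries and at 245, 265 and 339 in those labelled Bach2-cKO. All 3 WT libraries exceeded all 3 of the other group, by 1.5-fold in the means, with a log2 fold change of -0.59 ± 0.25 (adjusted p = 0.227). Eif4ebp2 was at 156, 123 and 115 in the WT libraries and at 119.7, 105 and 458 in those labelled Bach2-cKO. A single library, Bach2-cKO replicate 3, stood above the other 5, and its log2 fold change of 0.46 became -0.22 without it. Eif4enif1, which carries eIF4E into the nucleus, was higher without overlap at 451, 535 and 609 (WT) against 820.3, 672 and 618 (labelled Bach2-cKO), with an adjusted p of 0.329.

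**Figure D3:**
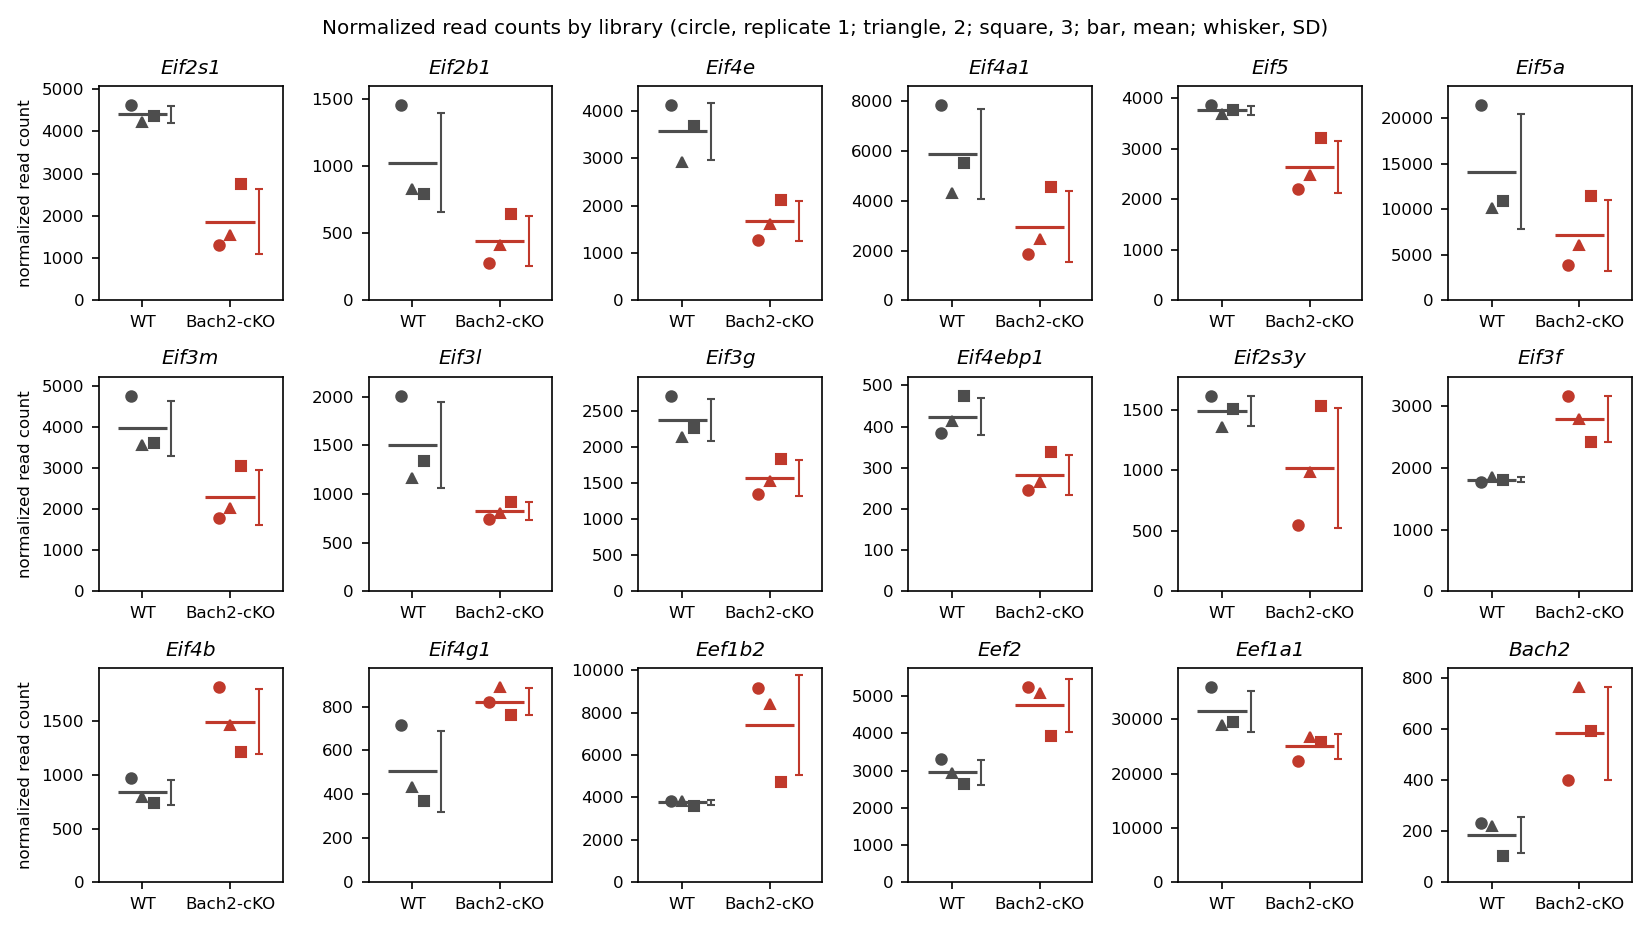
Normalized read counts of 17 translation factor genes and Bach2 in each library (grey, WT; red, labelled Bach2-cKO; circle, triangle and square are replicates 1, 2 and 3), with the mean as a bar and the SD as a whisker (n = 3). Replicate 3 of the labelled Bach2-cKO group (square) is the one nearest to WT in Eif2s1, Eif4e, Eif5a, Eef1b2 and most other panels.

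Of the 9 elongation factor genes, 2 were higher and 0 lower at an unadjusted p under 0.05, beside 10.1% and 10.2% of all genes. Eef1b2, part of the exchange factor that reloads eEF1A with GTP, was at 3847, 3849 and 3619.6 in the WT libraries and at 9160.3, 8382 and 4735 in those labelled Bach2-cKO. The 3 WT values were nearly equal, Bach2-cKO replicates 1 and 2 were more than 2-fold above them, and replicate 3 was only slightly above. Its mean was 1.97-fold higher, with a log2 fold change of 0.92 ± 0.25 (adjusted p = 0.144). Eef2, the translocase that moves the ribosome along, was at 3312, 2923 and 2634 in the WT libraries and at 5228, 5086 and 3932 in those labelled Bach2-cKO. Every library labelled Bach2-cKO exceeded every WT library, with a mean 1.61-fold higher and 0.68 ± 0.20 on the log2 scale (adjusted p = 0.147). Eef2k, the kinase that switches eEF2 off, was at 21.2, 19.1 and 15.6 in the WT libraries and at 16.3, 33.5 and 6.14 in those labelled Bach2-cKO, near the minimum, and its groups overlapped.

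Eef1a1, the most abundant member, was at 35882, 29061 and 29591 in the WT libraries and at 22352, 26800.5 and 25928 in those labelled Bach2-cKO. WT libraries lay above the others without overlap, at -0.33 ± 0.21 on the log2 scale (adjusted p = 0.379). The other exchange factor genes Eef1g and Eef1d were at 0.02 and -0.24 with overlapping groups, so Eef1b2 was the exchange factor gene of the 3 with an unadjusted p under 0.05. Eef1e1, an accessory protein of the tRNA synthetase complex, was lower without overlap at 896, 836 and 821 (WT) against 514, 750.5 and 688 (labelled Bach2-cKO), with -0.40 ± 0.22 (adjusted p = 0.313). Eefsec, the factor for selenocysteine, and Eef2kmt, a methyltransferase of eEF2, were at -0.04 and -0.08.

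Eif5a, which is active only once it carries the modified residue hypusine, had the largest ratio of highest to lowest value among the 10 members that are not pseudogenes and were highest per kb in WT. It was at 21386, 10137 and 10855 in the WT libraries and at 3869, 6124 and 11426 in those labelled Bach2-cKO. WT replicate 1 was more than 1.5-fold above every other library, while Bach2-cKO replicate 3 exceeded WT replicates 2 and 3, so the groups overlapped. Its mean was 1.98-fold lower and its log2 fold change -1.04 ± 0.40 (adjusted p = 0.194), which became -0.70 without WT replicate 1 and -1.45 without Bach2-cKO replicate 3. The paralog Eif5a2 was higher without overlap, at 51.5, 79.6 and 98.8 in the WT libraries and at 168, 107 and 148 in those labelled Bach2-cKO, with 0.90 ± 0.41 and an adjusted p of 0.25. The ratio of Eif5a over Eif5a2 per kb was 1453, 445 and 384 in the WT libraries and 80.3, 199.8 and 269.5 in those labelled Bach2-cKO, and the lowest ratio in WT was above the highest in the other group. The 2 helicase paralogs also differed, Eif4a2 being at 2092, 3398 and 2796 (WT) against 3382, 3282 and 2354 (labelled Bach2-cKO). The ratio of Eif4a1 over Eif4a2 per kb was 3.19, 1.08 and 1.68 in the WT libraries and 0.472, 0.638 and 1.65 in those labelled Bach2-cKO, so Eif4a1 was the more abundant helicase gene in every WT library and in Bach2-cKO replicate 3, and Eif4a2 in Bach2-cKO replicates 1 and 2.

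Of the 15 lower members, 2 are pseudogenes whose symbols mark them as copies of eIF4A and eIF5A genes. Eif4a-ps4 was at 489.5, 324 and 395 in the WT libraries and at 93.1, 118 and 239 in those labelled Bach2-cKO, and Eif5al3-ps was at 189.8, 108 and 109 in the WT libraries and at 26.6, 53.6 and 46.0 in those labelled Bach2-cKO. In neither did the groups overlap, at log2 fold changes of -1.52 ± 0.38 and -1.67 ± 0.48 (adjusted p = 0.141 and 0.146). Within each group Eif4a-ps4 had its libraries in the same order as Eif4a1, whereas Eif5al3-ps and Eif5a differed in order among the libraries labelled Bach2-cKO. Short reads of a gene and of its processed copy can be assigned to either, so their levels are uncertain. The ratio of Eif4a1 over Eif4a-ps4 per kb was 6.14, 5.08 and 5.36 in the WT libraries and 7.72, 7.98 and 7.31 in those labelled Bach2-cKO, and that of Eif5a over Eif5al3-ps was 35.1, 29.3 and 30.9 in the WT libraries and 45.2, 35.5 and 77.2 in those labelled Bach2-cKO, both higher without overlap in the libraries labelled Bach2-cKO. With the pseudogenes left out, 13 members were lower and 5 higher.

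Many members shared the order of the libraries. Among the 15 lower members, Bach2-cKO replicate 3 was the highest of its group in 14, WT replicate 1 the highest of its group in 14, and Bach2-cKO replicate 1 the lowest of all 6 libraries in 13. Among the 5 higher members, Bach2-cKO replicate 3 was the lowest of its group in all 5 and Bach2-cKO replicate 1 was the highest of all libraries in 4. Whether these positions are particular to the members, or common to all genes at such a p, was not tested. Over all 65 members WT replicate 1 was the highest WT library in 48 (73.8%), against 38.3% of all genes tested. The median deviation from the gene mean on the log2 scale was 0.32 in WT replicate 1 for the members and -0.06 for all genes, and between -0.09 and 0.01 in the other 5 libraries for the members.

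WT replicate 1 and Bach2-cKO replicate 3 were therefore left out in turn. Without WT replicate 1, 11 members were lower and 8 higher at an unadjusted p under 0.05, beside 9.43% of all genes lower and 9.79% higher, and the members' median was -0.08 against 0.03 over all genes. Without Bach2-cKO replicate 3, 19 members were lower and 8 higher, beside 14.04% and 13.1% of all genes, and 9 members had an adjusted p under 0.05, beside 507 of all genes (4.49%). Those 9 were Eif2s1, Eif4e, Eif4a1, Eif2b1, Eif3m and Eif4a-ps4 on the lower side and Eef1b2, Eef2 and Eif4b on the higher side, with adjusted p from 0.0308 to 0.0475. Without Bach2-cKO replicate 1 or 2, 8 and 9 members were lower, beside 5.36% and 5.92% of all genes, and 5 and 4 higher, beside 4.14% and 4.74%. The part of these libraries in the differences was not tested.

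**Figure D4:**
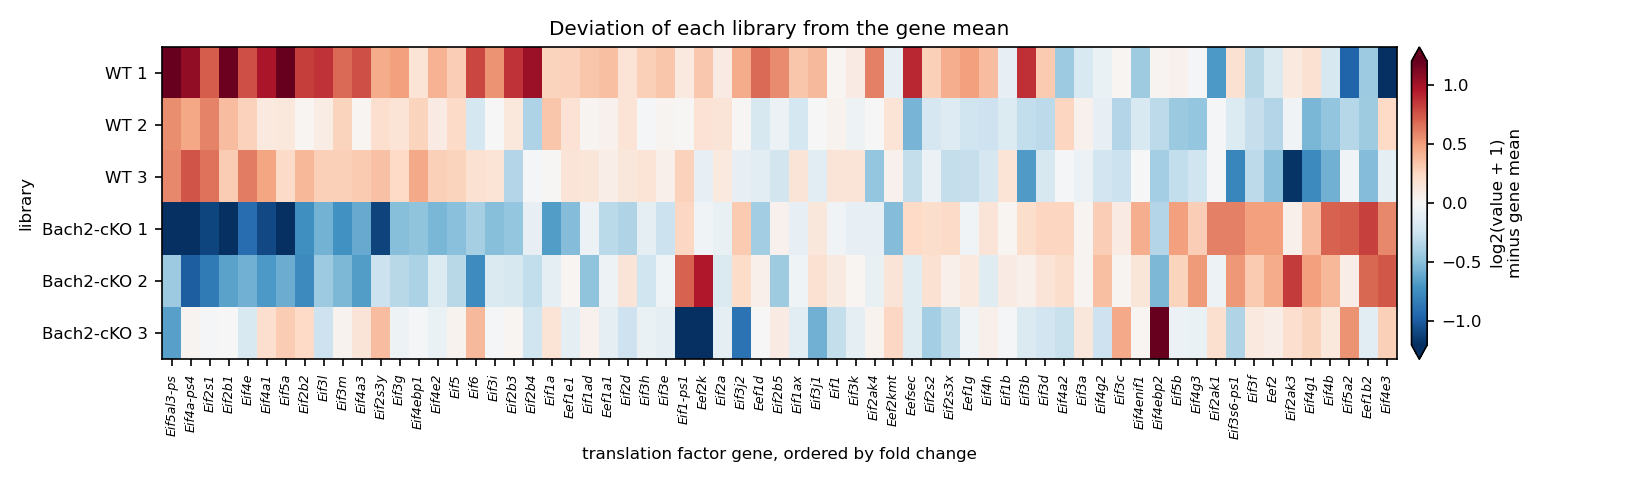
Log2(value + 1) minus the mean of the gene over 6 libraries (colour scale, red above and blue below the mean) for the 65 translation factor genes, ordered by fold change. WT replicate 1 is the highest WT library in 48 of the genes, and Bach2-cKO replicate 3 is paler than replicates 1 and 2 at the left and right ends.

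A further feature that members share is transcript length. Over the 65 members the log2 fold change had a Spearman correlation of 0.37 with the length of the longest transcript (a description across genes, which share libraries and are not replicates), and over the 11271 genes with a length it was 0.32. The 15 lower members had a median length of 1997 bases and the 5 higher ones of 3089. With a trend on length and GC content removed from each library, the correlation over the members was 0.04 and their median fold change -0.02, against 0.10 over all genes. All 15 lower members stayed negative and all 5 higher members positive in that fit, 13 and 4 of them at an unadjusted p under 0.05. Of all 65 members 13 were then lower and 6 higher, beside 7.99% of all genes lower and 8.51% higher. Eif2s1 was then at -1.09, Eif4e at -1.15, Eef1b2 at 1.34 and Eif3f at 0.89. Eif3m moved from -0.82 to -0.21, Eif4ebp1 from -0.59 to -0.23, Eif4g1 from 0.76 to 0.25, and Eef1a1 changed sign from -0.33 to 0.06. How far length acts on the differences beyond this fit was not tested.

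**Figure D5:**
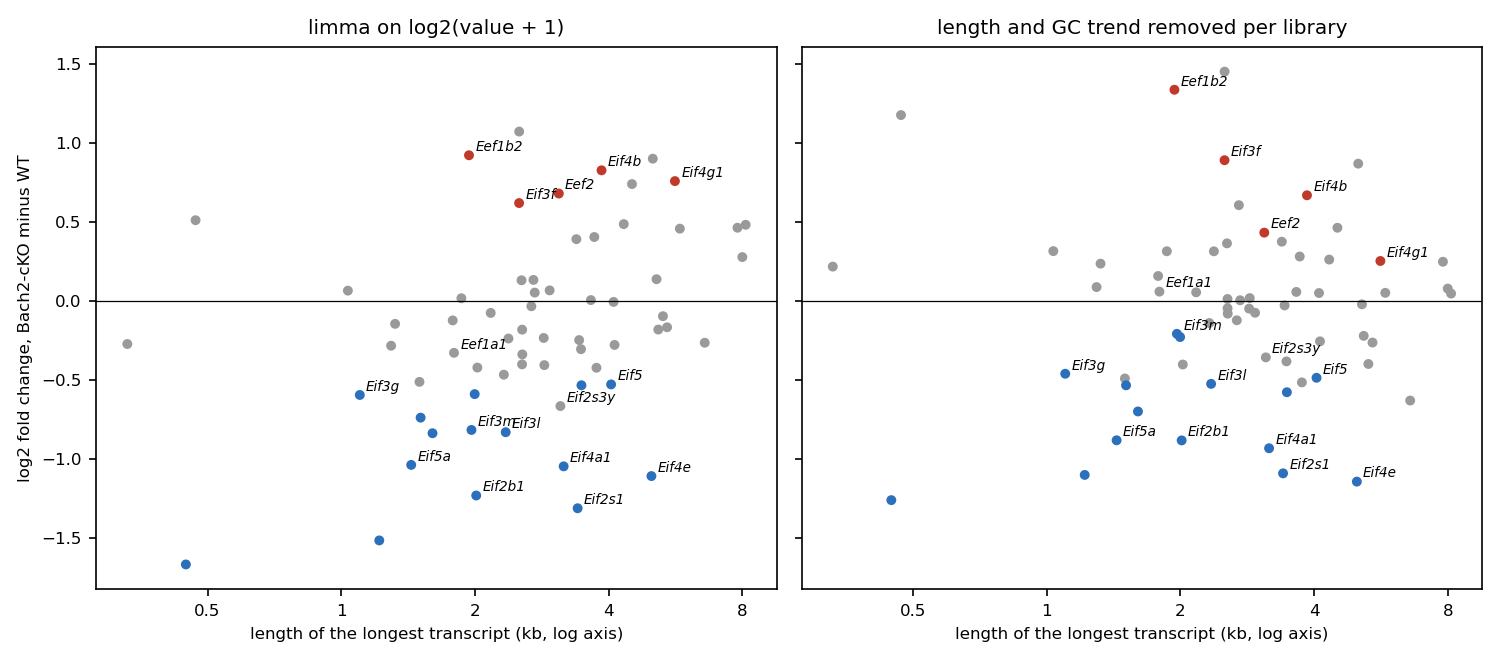
Log2 fold change of the 65 translation factor genes (libraries labelled Bach2-cKO minus WT) against the length of the longest transcript in kb (log axis), from limma on log2(value + 1) at left and with a length and GC trend removed per library at right; blue and red mark members lower and higher at an unadjusted p under 0.05 in the left-hand fit. Eif2s1 and Eif4e lie near -1 in both panels, while Eif3m and Eif4g1 move towards 0 at right.

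A class of mRNAs of the translation apparatus begins with a C followed by a run of pyrimidines (the 5′ terminal oligopyrimidine, or TOP, motif) and responds to mTORC1. Of the 10 members on a list of TOP mRNAs, 4 were higher at an unadjusted p under 0.05 (Eef1b2, Eef2, Eif3f and Eif4b) and 0 were lower, with a median log2 fold change of 0.08. Of the 55 members outside that list 1 was higher and 15 were lower, with a median of -0.24. Of all genes tested 10.1% were higher and 10.2% lower. Without WT replicate 1 the 2 medians were 0.17 and -0.11. In that fit 4 members outside the list were higher and 11 lower, beside 9.79% and 9.43% of all genes. The other 6 on the list were Eef1a1, Eef1d, Eef1g, Eif3a, Eif3e and Eif3h, with fold changes from -0.33 to 0.14, and Eef1a1, Eif3e and Eif3h were lower without overlap. So the list was not of 1 direction.

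Start regions are shown for 4 higher members of that list, for the 2 members of lowest unadjusted p and for the gamma pair, because the motif lies at the start of the transcript. They are RefSeq start windows on GRCm38.p6, from 25 bases before to 25 after the annotated start, 5′ to 3′, with a run of at least 8 C or T in capitals where there was one.
Eif3f (chr7:108934390-108934439, + strand): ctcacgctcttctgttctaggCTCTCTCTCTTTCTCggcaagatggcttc
Eef2 (chr10:81176606-81176655, + strand): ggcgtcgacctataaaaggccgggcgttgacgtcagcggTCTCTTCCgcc
Eif4b (chr15:102073748-102073797, + strand): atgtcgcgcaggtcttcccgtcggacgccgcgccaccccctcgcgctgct
Eef1b2 (chr1:63176806-63176855, + strand): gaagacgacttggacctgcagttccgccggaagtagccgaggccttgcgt
Eif2s1 (chr12:78862047-78862096, + strand): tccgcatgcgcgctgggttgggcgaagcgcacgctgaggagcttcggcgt
Eif4e (chr3:138526166-138526215, + strand): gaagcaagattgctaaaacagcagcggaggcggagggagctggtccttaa
Eif2s3x (chrX:94212627-94212676, - strand): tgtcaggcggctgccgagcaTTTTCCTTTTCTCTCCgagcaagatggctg
Eif2s3y (chrY:1010570-1010619, + strand): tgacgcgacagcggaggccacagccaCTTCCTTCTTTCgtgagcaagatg
Eif3f, Eef2, Eif2s3x and Eif2s3y hold runs of 15, 8, 16 and 12 letters, while Eif4b and Eef1b2 from the TOP list and Eif2s1 and Eif4e hold none of 8 or more in the windows shown. The other annotated start of Eif4e, not shown here, has a run of 12. A run of 8 or more within 25 bases of the start was found in 19.7% of all 32851 windows and in 16 of 64 windows of the 49 matched members. A match is a description of the letters only, and annotated starts can be some bases away from the true ones.

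The 300-base windows around member starts were also searched, on both strands, for CACGTG, the E-box that MYC and its relatives bind, and for TGAGTCA or TGACTCA, the AP-1 site that BACH proteins can also bind when it is part of a longer element. CACGTG was in 14 of 64 member windows, 21.9%, and in 7.15% of all windows. Of these 14 windows 3 belonged to Eif5a. By gene it was in 24.5% of the 49 matched members and in 8.09% of all genes with a window. All windows include those of genes not tested here, and no comparison with tested genes alone was made. CACGTG stood in windows of 12 members, among them Eif4e, Eif4a1 and Eif5a, which were lower, and Eef2, Eif3f and Eif4g1, which were higher. The AP-1 letters were in 3 of 64 member windows, 4.69%, and in 5.20% of all windows. For the 6 members named, up to 20 bases on each side of 1 E-box before the start are shown, with the E-box in capitals. Where a gene has several start windows the first that holds an E-box was used, which was the second of 2 for Eif4e and the second of 6 for Eif5a, and of the 2 boxes in that Eif4e window the one further from the start is shown.
Eif4e (chr3:138527020-138527065, + strand): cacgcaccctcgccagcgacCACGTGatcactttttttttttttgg
Eif4a1 (chr11:69672587-69672632, - strand): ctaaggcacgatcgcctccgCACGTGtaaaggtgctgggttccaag
Eif5a (chr11:69921435-69921480, - strand): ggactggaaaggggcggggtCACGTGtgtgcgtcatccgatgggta
Eef2 (chr10:81176568-81176613, + strand): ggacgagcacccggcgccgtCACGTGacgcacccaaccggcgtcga
Eif3f (chr7:108934327-108934372, + strand): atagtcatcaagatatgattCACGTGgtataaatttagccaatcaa
Eif4g1 (chr16:20672653-20672698, + strand): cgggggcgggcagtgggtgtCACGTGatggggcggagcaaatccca
The boxes begin 228, 189, 74, 43, 68 and 54 bases before the annotated start in that order. Myc itself was at 959, 297 and 174 in the WT libraries and at 85.7, 318 and 176 in those labelled Bach2-cKO, overlapping, with its highest value in WT replicate 1 and an adjusted p of 0.323.

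The ribosomal protein genes give a scale for the members. Small-subunit cytosolic genes (36 Rps symbols; the table used here has 0 Rpl symbols) had summed values of 329336, 313480.0 and 305625 in the WT libraries and 528450.0, 486652 and 279354 in those labelled Bach2-cKO. Bach2-cKO replicates 1 and 2 were high and replicate 3 was below all WT libraries, much as Eef1b2 was high in the same 2 libraries. In all 6 libraries 2 of the 36 were higher and 0 lower at an unadjusted p under 0.05, with a median log2 fold change of 0.39; without Bach2-cKO replicate 3 the counts were 29 and 0 and the median was 0.67. With the length and GC trend removed they were 20 and 0, with a median of 0.71. Of all genes 10.1% were higher and 10.2% lower in the main fit. These shares were 13.1% and 14.04% without Bach2-cKO replicate 3, and 8.51% and 7.99% with the trend removed. Of 76 genes for mitochondrial ribosomal proteins, 16 were lower and 0 higher, with a median of -0.29. The lower count was 11 without WT replicate 1 and 29 without Bach2-cKO replicate 3, and after removal of the length and GC trend 12 were lower and 4 higher, with a median of -0.17. Without WT replicate 1, 9.43% of all genes were lower, and the shares in the other fits are those given above. The difference between these groups and the factor genes was not tested.

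Other genes of the translation pathway were read from 7 lists, with 62 genes in the table and 56 tested. Of these 56, 7 were higher and 4 lower at an unadjusted p under 0.05, all 11 without overlap, and the median was 0.02. These shares of 12.5% and 7.14% stand beside 10.1% and 10.2% of all genes. Without WT replicate 1 the counts were 5 higher and 2 lower, beside 9.79% and 9.43% of all genes. Without Bach2-cKO replicate 3 they were 6 and 8, beside 13.1% and 14.04%. The clearest was Pabpc1, the poly(A)-binding protein that closes the mRNA loop with eIF4G, at 3648, 4870.5 and 4358 in the WT libraries and at 9921, 9313 and 7853 in those labelled Bach2-cKO. No WT library came near the lowest value of the other group, the mean was 2.1-fold higher and the log2 fold change 1.08 ± 0.20 (adjusted p = 0.141 in limma). Pabpc4, a second poly(A)-binding protein, was at 184, 214 and 164 (WT) against 417, 379 and 296 (labelled Bach2-cKO), and Larp4b, a partner of these proteins, at 790.3, 860.4 and 812 (WT) against 1449.9, 1344 and 990.1 (labelled Bach2-cKO), with 0.95 ± 0.28 and 0.60 ± 0.21. Paip2, which inhibits Pabpc1, was lower at 4798, 4737 and 5698 (WT) against 3303, 3768 and 4286 (labelled Bach2-cKO), with -0.43 ± 0.19, and turned to 0.21 with the length and GC trend removed. The list of poly(A)-binding proteins and partners thus had 3 of 9 higher and 1 of 9 lower in the main fit. Without WT replicate 1 it had 3 higher and 0 lower. With the length and GC trend removed it had 2 higher and 0 lower, beside 8.51% and 7.99% of all genes. Larp4b was then at 0.39 (unadjusted p = 0.0527 in limma).

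Among 10 tested genes of mTORC1 and MNK control, 1 was higher and 1 lower, near the 10.1% and 10.2% of all genes. Rheb, the GTPase that activates mTORC1, was at 1932, 1609 and 1961 in the WT libraries and at 937, 1216 and 1270.3 in those labelled Bach2-cKO. Every value labelled Bach2-cKO was below every WT value, with -0.69 ± 0.20 (adjusted p = 0.151). Mknk2, a kinase that phosphorylates eIF4E, was at 371, 334 and 336 in the WT libraries and at 763, 754 and 393 in those labelled Bach2-cKO, high in Bach2-cKO replicates 1 and 2 and close to WT in replicate 3, with 0.81 ± 0.29 (adjusted p = 0.181). After removal of the length and GC trend Mknk2 was at 0.35 (unadjusted p = 0.195). Mtor was at 0.70 and Rptor at 0.22, both overlapping; without WT replicate 1 they were at 0.15 and 0.52, and after removal of the length and GC trend at 0.12 and -0.45. In the integrated stress response list 1 of 9 was higher, 11.1% beside 10.1% of all genes, and 0 were lower. That gene was Ppp1r15b, a subunit of the phosphatase that acts on eIF2 alpha. It was at 155, 292 and 217 (WT) against 466, 498 and 355 (labelled Bach2-cKO) with 1.02 ± 0.30 (adjusted p = 0.151). Atf4, whose mRNA is translated when eIF2 is phosphorylated, was level at 905, 777 and 1032 (WT) against 1085, 1087 and 919 (labelled Bach2-cKO), and Ddit3 and Asns, genes it can induce, were at -0.08 and -1.34 with overlapping groups.

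Of 6 tested reinitiation and scanning helpers, 2 were higher: Abcf1, an eIF2 partner, at 528, 764 and 665 (WT) against 1144, 836 and 926 (labelled Bach2-cKO) with 0.57 ± 0.23, and the helicase gene Ddx3x at 1107, 1222 and 1019 (WT) against 1416, 1463 and 1638 (labelled Bach2-cKO) with 0.43 ± 0.19. Both had all values above WT. Without WT replicate 1, 0 of the 6 were higher at an unadjusted p under 0.05, though Abcf1 and Ddx3x were both at 0.43. Without Bach2-cKO replicate 3, 1 was higher and 1 lower. With the length and GC trend removed 1 was higher, with Abcf1 at 0.39 (unadjusted p = 0.118) and Ddx3x at 0.41 (unadjusted p = 0.0418). Of all genes 10.1% were higher and 10.2% lower in the main fit. These shares were 9.79% and 9.43% without WT replicate 1, 13.1% and 14.04% without Bach2-cKO replicate 3, and 8.51% and 7.99% with the trend removed. The counts of the lists below stand beside the same shares. The enzymes that make hypusine on eIF5A and diphthamide on eEF2 had 1 of 9 lower, Dph5, at 736, 572 and 517 (WT) against 346, 427 and 468 (labelled Bach2-cKO) with -0.55 ± 0.24, while Dhps and Dohh, the hypusine enzymes, were at -0.18 and -0.34 and overlapped. This count was 0 of 9 without WT replicate 1, with Dph5 at -0.40. It was also 0 with the length and GC trend removed, with Dph5 at -0.50 (unadjusted p = 0.0926). Mitochondrial translation factors had 1 of 8 lower, Mtif3, an initiation factor, at 153, 141 and 167 (WT) against 42.9, 51.6 and 126 (labelled Bach2-cKO) with -1.22 ± 0.47. Termination and rescue factors had 0 of 5 in either direction, with Etf1, the factor that reads stop codons, at 2019.7, 1213 and 1211 (WT) against 1475, 1374 and 1494 (labelled Bach2-cKO).

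Markers of other cells and states differed between libraries. The plasma cell list, of which 4 of 5 genes in the table were tested, summed to 2198, 30330.0 and 8582 in the WT libraries and 3571, 1872 and 1799 in those labelled Bach2-cKO, most of it Jchain in WT replicates 2 and 3 and Bach2-cKO replicate 1, while Xbp1 was the most abundant gene of the list in the others; Jchain was at 316, 28803 and 6972 (WT) against 2075, 472 and 484 (labelled Bach2-cKO), Sdc1 was under the minimum, and Xbp1 was lower without overlap at 1588, 1139 and 1294 (WT) against 925, 895 and 971 (labelled Bach2-cKO), with an unadjusted p of 0.0288. B cell genes, of which 5 of 6 in the table were tested, summed to 242, 779.6 and 569.8 in the WT libraries and 427, 336 and 328 in those labelled Bach2-cKO, with Cd79b the most abundant gene in sum over all libraries but below Cd22 in Bach2-cKO replicates 1 and 2, Ebf1 under the minimum, and Ms4a1 lower without overlap at 35.3, 33.7 and 45.8 (WT) against 2.96, 2.68 and 10.2 (labelled Bach2-cKO). Cd22 had a positive log2 fold change of 0.94, with overlapping groups, and the other 4 tested B cell genes had negative ones. Of the 5 tested, 1 was lower at an unadjusted p under 0.05, and 3 were lower and 0 higher without WT replicate 1. Of all genes 10.2% were lower and 10.1% higher in the main fit, and 9.43% and 9.79% without WT replicate 1. Cd79a was then at -2.75, Cd79b at -1.26, Cd22 at 0.46 and the plasma cell gene Jchain at -4.18. DESeq2 put Cd79a at an adjusted p of 0.000437, Jchain at 0.0232 and Cd79b at 0.0274. It put Ms4a1 at 0.0557, Cd22 at 0.525 and Pax5 at 0.776. Myeloid genes, 5 of 6 tested, summed to 2299, 8017 and 4006 in the WT libraries and 2044, 5393 and 1809 in those labelled Bach2-cKO, most of it from Lyz2 and highest in WT replicate 2, with Itgam under the minimum and Cd68 lower at an unadjusted p of 0.0297, with overlapping groups. CD8 genes, 2 of 2 tested, summed to 176, 786 and 552 in the WT libraries and 361, 332 and 413 in those labelled Bach2-cKO. The 11 proliferation genes summed to 22619, 10878 and 16399 in the WT libraries and 13262, 10691 and 15411 in those labelled Bach2-cKO, led by Pcna and Birc5, and 2 of those 11, Ccnb1 and Ccnb2, were lower and 1, Mcm5, was higher at an unadjusted p under 0.05. The part of these cells in the members' differences was not tested.

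CD4 T cell and Tfh genes differed between the groups as well. Of 6 CD4 T cell genes, 3 were lower (Cd3e, Trac and Cd28) and 1 was higher (Cd4) at an unadjusted p under 0.05, and their sums were 63521, 64952 and 84989 in the WT libraries and 48747, 51224 and 62353 in those labelled Bach2-cKO. Cd3e was at 10623, 9648 and 11924 in the WT libraries and at 4534, 5238 and 6139.8 in those labelled Bach2-cKO, lower in every library labelled Bach2-cKO than in any WT library. Of 9 Tfh genes, Bcl6, Cd44 and Tox2 were higher and Icos was lower at such a p, with sums of 18601, 21145 and 29127 in the WT libraries and 22778, 16059.6 and 22318 in those labelled Bach2-cKO. Of all genes tested 10.1% were higher and 10.2% lower. In limma the adjusted p of the genes so counted ran from 0.141 (Cd3e) to 0.193 (Cd4). With the length and GC trend removed Trac was at -0.28 (unadjusted p = 0.246 in limma). In the main fit transcripts of T cell identity thus differed in both directions at an unadjusted p. Whether they share a cause with the differences of the translation factors was not tested.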

How the data were processed

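The deposited signal is a normalized read count per gene symbol. The study's methods name Tophat2, HTSeq and DESeq2; the submitters' processing notes list STAR 2.5.2b, DESeq2 1.20.0, R 3.5.1 and GRCm38 (mm10). The authors' size factors were kept. Here log2(value + 1) was fitted with limma 3.58.1 (R 4.3.3, trended variance, group as the only term, 6 libraries) over 11296 genes at 10 or more in at least 3 libraries, with Benjamini-Hochberg adjustment over all of them; the fold understates changes of low genes. edgeR 4.0.16 and DESeq2 1.42.0 were run on reads recovered from 5 libraries. Fits were checked on simulated data. An exact permutation test of 3 against 3 libraries cannot go below 0.1. Named in full are members with an unadjusted p under 0.05 and no overlap, up to 12 in each direction, and 10 set members and Bach2; pathway genes follow the same rule, and other genes were named after their values were seen. The members and lists were chosen with earlier results of these data known. Symbols were matched without regard to case to GENCODE M21 for length, and 49 of 65 members to RefSeq promoters. 1 gene of the planned B cell list is not reported here.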

Additional observations from a re-analysis of the deposited data

How the results depend on the processing

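Counts of members were computed again with pseudocounts of 0.5 and 5, without the minimum, with a mean value of at least 50, with recomputed size factors, quantile normalization, no variance trend, library weights, a length and GC trend removed, edgeR, DESeq2, each library left out and, added after seeing the data, without pseudogenes. Genes called were 0 in limma but 1128 with library weights and 95 in DESeq2. Members higher numbered 14 with library weights, beside 24.3% of all genes, and 8 in edgeR, beside 9.55%. With 1 library left out they numbered from 4 to 8, beside 4.14% to 13.1% of all genes. Members lower ranged from 8 to 19 in the same leave-one-out fits, beside 5.36% to 14.04%, and the median from -0.27 to -0.08. With library weights, which gave WT replicate 1 a weight of 0.206 and Bach2-cKO replicate 2 of 5.54, members lower numbered 20, beside 22.8% of all genes, and the median was -0.030; it was -0.023 with the length and GC trend removed. The cause was not tested.

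The replicate numbers did not pair the libraries (r = -0.07, 0.12 and -0.04 for numbers 1 to 3), and with the replicate number as a block 0 genes were called, 14 members were lower and 5 higher, with a median of -0.18. Of 36 named genes 32 kept 1 sign in every setting. Eef1a1 turned to 0.057 and Paip2 to 0.21 with the length and GC trend removed. Eif2s3x turned to -0.032 with recomputed size factors and -0.058 with quantile normalization, and ranged from -0.14 to 0.22 with 1 library left out. Eef2k turned to 0.70 with library weights, 0.12 in edgeR and 0.088 in DESeq2, and ranged from -0.81 to 0.32 with 1 library left out. Values as low as those of Eef2k rest on few reads at this depth, whose part was not tested.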
